A study of Mus musculus with 16 samples.

Results

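The 10 genes described here, Sst, Vip, Npy, Cck, Pvalb, Tac1, Crh, Cort, Nos1 and Gad1, encode neuropeptides, a calcium-binding protein and enzymes by which cortical interneurons are classified. They were given as a list of symbols, with earlier results of these data known, and all 10 were found among the 24421 genes of the deposited tables, each with between 74 and 33808 reads in every library. RNA was from the somatosensory cortex of mice labelled male, C57BL/6 wild-type (WT) or lacking AcPb, and 2 to 3 months old. AcPb is the neuron-specific form of the accessory protein of the interleukin 1 receptor, and the AcPb-/- mice were homozygous for its deletion, genotyped from tail tissue. Mice were kept in 12 h of light and 12 h of darkness, and either left undisturbed (CTL) or sleep deprived (SD) for 8 h by gentle handling from zeitgeber time (ZT) 20, with all tissue taken at ZT4. The groups CTL-WT, SD-WT, CTL-AcPbKO and SD-AcPbKO had 3 libraries each. Values are read counts divided by a size factor for depth (normalized counts), on 1 scale for the 12 libraries, and ± is the standard deviation over 3 libraries.

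Inhibitory interneurons of the cortex make GABA through Gad1 and its partner Gad2, and most fall into classes named for Pvalb, Sst or Vip. Somatostatin, neuropeptide Y and cortistatin are inhibitory peptides, and vasoactive intestinal peptide (Vip) marks cells that mainly inhibit other interneurons. Cck and Crh are shared with other cells: cholecystokinin RNA is abundant in pyramidal neurons, while cortical corticotropin-releasing hormone is found largely in interneurons. Nos1, the neuronal nitric oxide synthase, is strongest in a sparse class of Sst and Npy cells that is active during sleep, and Tac1 makes substance P.

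Before the results, libraries that went against their labels must be named. Both controls CTL-WT 02 and 03 and both controls CTL-AcPbKO 04 and 05 held 25352 to 39358 reads of Xist, the RNA of the inactive X chromosome of females, and 0 to 2 reads of Y-linked genes, although labelled male. The other 8 libraries held 5 to 13 Xist reads and 5105 to 10593 Y-linked reads. No SD library was of the first kind, so the libraries called controls differed in this respect as well as in sleep. Depth also followed the condition: reads on genes ranged from 26504840 to 41615582 in controls and from 58770286 to 71857505 after SD. For the SD results of the members and of the genes that work with them, a fit of the 8 libraries without Xist is therefore given beside the main one. It leaves 1 control per genotype, CTL-WT 01 and CTL-AcPbKO 03, whose spread is taken from the other groups. All AcPb-/- values of that fit against controls thus rest on CTL-AcPbKO 03, which stood apart in several markers given below. The WT values likewise rest on CTL-WT 01, the highest of the 12 libraries in summed striatal (29414) and oligodendrocyte (124730) markers. Both CTL-WT 01 and CTL-AcPbKO 03 were the lowest of their groups in Crh, Vip and Npy. Il1rap, the gene that encodes AcPb along with the common form, was counted as a whole, so it does not test the deletion: it held 1476 to 1520 in CTL-WT and 1515 to 1647 in CTL-AcPbKO.

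The cyclic AMP response element (CRE), the letters TGACGTCA bound by the activity-regulated factor CREB, was first described in peptide genes, and the start regions of 5 members are shown for it. Of the 10 members, 9 matched a RefSeq promoter (GRCm38.p6). Crh had none there and was not searched. For the 9, the 250 bases before each start were searched on both strands. The search was for the full element and for its shorter core, TGACG, which the full element contains. Capitals mark these matches, and all sequences read 5′ to 3′ on the gene's strand. Sst is given as the 30 bases around its match at chr16:23890874-23890903 (minus strand).
Sst: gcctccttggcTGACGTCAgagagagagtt
The next 4 are the members besides Crh that passed the test in at least 1 comparison below: Vip at chr10:5638968-5639217 (plus strand), Npy at chr6:49822460-49822709 (plus), Cck at chr9:121495695-121495944 (minus) and Cort at chr4:149126764-149127013 (minus).
Vip: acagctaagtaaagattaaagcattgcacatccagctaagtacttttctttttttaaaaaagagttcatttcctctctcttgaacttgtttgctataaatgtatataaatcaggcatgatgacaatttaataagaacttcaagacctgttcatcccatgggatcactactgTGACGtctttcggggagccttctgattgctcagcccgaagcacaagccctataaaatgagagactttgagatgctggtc
Npy: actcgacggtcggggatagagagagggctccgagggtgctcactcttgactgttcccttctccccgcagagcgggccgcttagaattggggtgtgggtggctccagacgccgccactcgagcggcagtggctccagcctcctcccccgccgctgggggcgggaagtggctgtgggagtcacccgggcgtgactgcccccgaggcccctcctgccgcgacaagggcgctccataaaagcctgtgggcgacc
Cck: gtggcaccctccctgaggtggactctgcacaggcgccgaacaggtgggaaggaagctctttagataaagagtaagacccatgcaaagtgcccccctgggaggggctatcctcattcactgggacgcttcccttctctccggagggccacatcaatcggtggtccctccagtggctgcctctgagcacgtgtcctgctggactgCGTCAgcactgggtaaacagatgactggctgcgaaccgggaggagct
Cort: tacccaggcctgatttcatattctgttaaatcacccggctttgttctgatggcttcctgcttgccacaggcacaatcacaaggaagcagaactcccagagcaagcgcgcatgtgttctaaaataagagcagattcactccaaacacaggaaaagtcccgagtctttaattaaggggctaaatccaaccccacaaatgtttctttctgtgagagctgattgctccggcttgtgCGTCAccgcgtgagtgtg

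Among the 9 members searched, the full element stood in the window of Sst alone, beginning 48 bases before the start. It stood in 1.55% of 32851 promoters of this length. The core stood in the windows of 6 members, beginning 79 bases before the start in Vip, 47 in Cck, 18 in Cort, 130 in Nos1, 197 and 43 in Tac1, and within the full element in Sst, against 17.8% of promoters. Starts are those of RefSeq and can lie inside the gene as annotated in GENCODE. The windows of Nos1 (chr5:117866589-117866838) and Gad1 lay wholly inside their genes, as did a further window of Pvalb. Those of Sst and Tac1 did so in part. A match is a description of letters and not of binding. As given below, Sst, with the full element, did not pass the test after SD. Of those with the core, Vip was called higher in WT mice and Cck lower in AcPb-/- mice. Cort, Nos1 and Tac1, also with the core, did not pass. Npy, with no match in this window, was higher after SD in WT mice, and Pvalb and Gad1, also without a match, did not pass. Whether matches go with the SD differences was not tested, and Crh was not searched. The members lie on 9 chromosomes. Sst (chr16:23889573-23890958) lies 2.69 megabases from Il1rap (chr16:26581704-26730117), and Cort (chr4:149125034-149126763) begins 357 bases downstream of the gene Cenps (chr4:149127121-149137629) on the same strand, in GENCODE M21 (GRCm38). Exons of 9 members overlapped no exon of another gene, and 268 bases of Nos1 (chr5:117781032-117958840) overlapped Gm26995 on the other strand.

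Per length, the members spanned a wide range of levels. In RPKM, reads on a gene scaled to its exon length and to the library total, Sst averaged 168.7 ± 19.7 over the 12 libraries, Cck 141.0 ± 22.0 and Npy 123.5 ± 15.3, above 99.4%, 99.3% and 99.2% of the genes with a length. Gad1 averaged 53.9 ± 4.1 and Pvalb 48.4 ± 12.5, and Vip followed with 17.9 ± 2.9. Crh (6.52 ± 2.10), Cort (6.11 ± 2.05) and Nos1 (5.68 ± 1.70) lay close together, and Tac1 was lowest with 2.04 ± 0.74. Within single libraries the order held in all 12 for Npy above Gad1, Pvalb above Vip, Vip above Crh and Nos1 above Tac1. It did not for the others: Sst exceeded Cck in 11 libraries, Cck exceeded Npy in 9, Gad1 exceeded Pvalb in 9, Crh exceeded Cort in 8 and Cort exceeded Nos1 in 6. These neighbours were not separated beyond the spread between libraries.

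**Figure D1:**
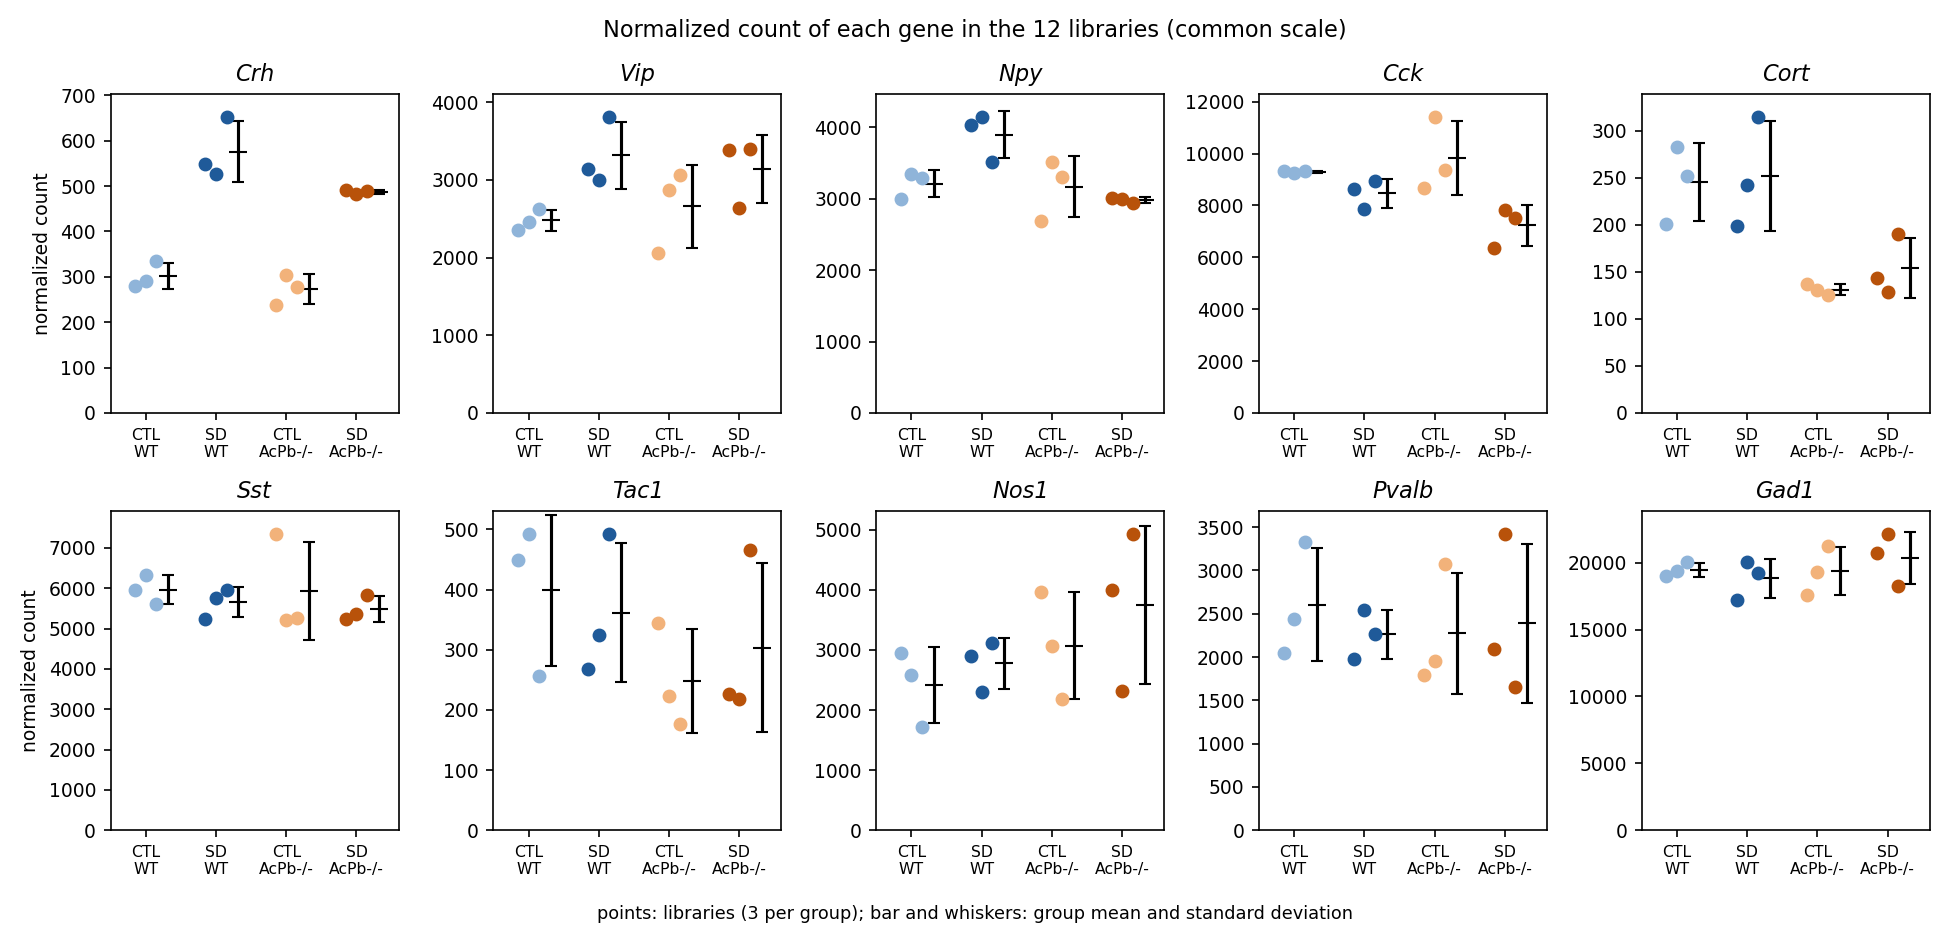
Normalized counts (vertical axis, common scale, from 0) of the 10 genes in 12 libraries, grouped along the horizontal axis as undisturbed (CTL) or sleep deprived (SD) wild-type and AcPb-/- mice; points are libraries, and the black bar with whiskers is the group mean with its standard deviation. Crh separates SD from CTL libraries in both genotypes, from 481.6 upwards against 335.3 downwards, and Cort separates the genotypes, with at most 190.1 in AcPb-/- and at least 198.8 in WT libraries.

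The first comparison asked which members differed after sleep loss in WT mice. Crh rose 1.90-fold, Vip 1.33-fold and Npy 1.21-fold, and the other 7 members did not pass the test. The test was limma's moderated test on log2(normalized count + 1), 3 libraries against 3, with p adjusted (Benjamini-Hochberg) over all 20417 genes with a read and called under 0.05. By it 25.4% of genes were called, 13.2% higher and 12.2% lower, so 3 of 10 members is near the background share. In AcPb-/- mice 2 of 10 members were called, Crh higher (1.79-fold) and Cck lower (0.740-fold), where 27.4% of 20574 genes were called, 14.1% higher and 13.3% lower. Since the tissue is bulk cortex, fewer cells of a type and less RNA per cell cannot be told apart.

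Crh, the peptide that starts the hormonal stress response from the hypothalamus and is made locally in cortical interneurons, had the largest difference of the 10. Its CTL-WT libraries held 279.8, 290.2 and 335.3 normalized counts and its SD-WT libraries 547.9, 527.0 and 651.7. All SD-WT values lay well above all CTL-WT values. The log2 difference was 0.93 ± 0.11 (standard error; 95% interval 0.68 to 1.18; limma adjusted p = 0.000688). The AcPb-/- controls held 238.7, 303.7 and 277.3 and the SD-AcPbKO libraries 490.9, 481.6 and 488.8, again without overlap. There the log2 difference was 0.84 ± 0.11 (0.59 to 1.09; limma adjusted p = 0.00139). In the fit without the 4 Xist libraries it was also called in both genotypes (log2 differences 1.03 and 1.03; limma adjusted p = 0.0432 and 0.0236), so that Crh was the one member called in both genotypes in every setting except the fit with the replicate number as a block, in which no gene was called. The controls kept in the fit without the Xist libraries were those with the least Crh in their groups (279.8 in CTL-WT 01 and 238.7 in CTL-AcPbKO 03). The SD differences of both genotypes, AcPb-/- minus WT, differed by -0.09 (interval -0.43 to 0.25, interaction term over 12 libraries, limma adjusted p = 0.987).

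Vip, whose cells disinhibit the cortex, held 2356, 2459 and 2624 in CTL-WT and 3145, 2993 and 3806 in SD-WT. The groups did not overlap, and the log2 difference was 0.41 ± 0.09 (0.21 to 0.61; limma adjusted p = 0.00825). Its AcPb-/- control libraries held 2053, 2866 and 3063 and the SD-AcPbKO libraries 3386, 2635 and 3397, which overlap because CTL-AcPbKO 04 and 05 exceeded SD-AcPbKO 03. The log2 difference there was 0.25 ± 0.16 (-0.10 to 0.61; limma adjusted p = 0.272). A difference between the genotypes was not shown (-0.16, interval -0.60 to 0.27; limma adjusted p = 0.986). The WT call was lost with all 12 libraries in 1 limma fit (adjusted p = 0.0516) and without the Xist libraries (log2 difference 0.49, limma adjusted p = 0.188). With a term for Xist in the fit of 12 libraries Vip was called in both genotypes (0.63 in WT, limma adjusted p = 0.0113; 0.46 in AcPb-/-, limma adjusted p = 0.0348), and its AcPb-/- value without the Xist libraries was 0.61 (limma adjusted p = 0.0998).

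Npy, a peptide of Sst and Nos1 cells and of neurogliaform cells, rose in WT mice and did not pass the test in AcPb-/- mice. CTL-WT libraries held 2991, 3342 and 3289 and SD-WT libraries 4035, 4141 and 3519, with every SD library above every control. The log2 difference was 0.28 ± 0.08 (0.11 to 0.45; limma adjusted p = 0.0226). It depended on single libraries: leaving out CTL-WT 01 or 02 or SD-WT 01 or 02 gave limma adjusted p between 0.0547 and 0.102, and the 8 libraries without Xist gave 0.38 (limma adjusted p = 0.0832). Controls of the AcPb-/- genotype held 2693, 3507 and 3308 and the SD-AcPbKO libraries 3015, 2994 and 2939, all within the range of the controls. The log2 difference was -0.08 ± 0.09 (-0.29 to 0.14; limma adjusted p = 0.598), and without the Xist libraries it was 0.15 (limma adjusted p = 0.344). The difference between the genotypes in the SD effect was -0.36 (-0.64 to -0.08) with a limma adjusted p of 0.986, so it did not pass the test.

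Cck, made by a class of basket cells and by pyramidal neurons, was the one member that fell after SD. Its AcPb-/- controls held 8666, 11405 and 9381 and the SD-AcPbKO libraries 6347, 7838 and 7517, without overlap. The log2 difference was -0.43 ± 0.11 (-0.69 to -0.18; limma adjusted p = 0.0222). Without CTL-AcPbKO 04, SD-AcPbKO 02 or SD-AcPbKO 04 the limma adjusted p was 0.0713, 0.0928 and 0.0506, and without the Xist libraries the difference was -0.26 (limma adjusted p = 0.254). In WT mice, the controls held 9327, 9247 and 9313 and the SD libraries 8622, 7864 and 8945. These did not overlap either, and the log2 difference was -0.14 ± 0.06 (-0.27 to 0.0015; limma adjusted p = 0.139), and it was -0.14 without the Xist libraries too (limma adjusted p = 0.565). Between genotypes the SD difference of Cck differed by -0.30 (-0.60 to -0.0017; limma adjusted p = 0.986).

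The 4 other members with a neuropeptide or synthase role had no called difference after SD in either genotype. Sst held 5957, 6331 and 5605 in CTL-WT, 5250, 5757 and 5967 in SD-WT, 7336, 5207 and 5266 in CTL-AcPbKO and 5230, 5361 and 5845 in SD-AcPbKO. CTL-AcPbKO 03 stood above all others, and the log2 differences were -0.08 (-0.23 to 0.08) in WT and -0.10 (-0.38 to 0.19) in AcPb-/- mice. Without the Xist libraries Sst was at -0.08 in WT and at -0.42 in AcPb-/- mice (limma adjusted p = 0.679 and 0.0516), where the 1 control left is CTL-AcPbKO 03, and with a term for Xist it was at -0.24 and -0.26 (limma adjusted p = 0.164 and 0.116). Cort held 201.3, 283.1 and 252.6 in CTL-WT and 198.8, 242.3 and 314.7 in SD-WT, and its log2 difference was 0.02 (-0.37 to 0.42). In AcPb-/- mice it held 137.0, 130.7 and 125.9 in controls and 144.0, 128.9 and 190.1 after SD, a log2 difference of 0.22 (-0.17 to 0.60). Without the Xist libraries the differences of Cort were 0.30 and 0.16 (limma adjusted p = 0.598 and 0.764).

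Tac1 and Nos1 were spread widely between libraries of 1 group, with coefficients of variation of 31.5% to 46.4% for Tac1 and 15.4% to 35.2% for Nos1, against 4.2% to 23.2% for Cort. Tac1 held 449.4, 491.6 and 255.9 in CTL-WT, 268.2, 325.3 and 491.7 in SD-WT, 344.4, 222.5 and 176.9 in CTL-AcPbKO and 226.1, 218.6 and 466.1 in SD-AcPbKO. One SD library of each genotype, numbered 04 in both, was the highest of its group. The log2 differences were -0.13 (-0.70 to 0.44) and 0.26 (-0.48 to 0.99), and -0.36 and -0.27 without the Xist libraries. Nos1 held 2947, 2587 and 1713 in CTL-WT, 2906, 2297 and 3123 in SD-WT, 3967, 3065 and 2183 in CTL-AcPbKO and 3999, 2324 and 4924 in SD-AcPbKO. Its log2 differences were 0.22 (-0.17 to 0.61) and 0.26 (-0.38 to 0.91), and both turned negative without the Xist libraries (-0.10 and -0.15).

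Pvalb and Gad1, the markers of fast-spiking basket cells and of GABA synthesis, did not pass the test either. Pvalb ranged from 2048 to 3326 in CTL-WT, 1972 to 2542 in SD-WT, 1791 to 3073 in CTL-AcPbKO and 1655 to 3417 in SD-AcPbKO, with log2 differences of -0.18 (-0.52 to 0.16) and 0.05 (-0.57 to 0.66), and of 0.14 and 0.35 without the Xist libraries. Gad1 had the smallest relative spread per length over the 12 libraries, and it held 19004, 19408 and 20031 in CTL-WT, 17191, 20064 and 19225 in SD-WT, 17616, 19281 and 21239 in CTL-AcPbKO and 20701, 22123 and 18237 in SD-AcPbKO. All 4 groups overlapped, and the log2 differences were -0.05 (-0.21 to 0.10) in WT and 0.07 (-0.14 to 0.29) in AcPb-/- mice, against -0.02 and 0.21 without the Xist libraries. The 3-against-3 intervals bound a change of Gad1 after SD more tightly than those of Tac1, Nos1 or Pvalb.

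**Figure D2:**
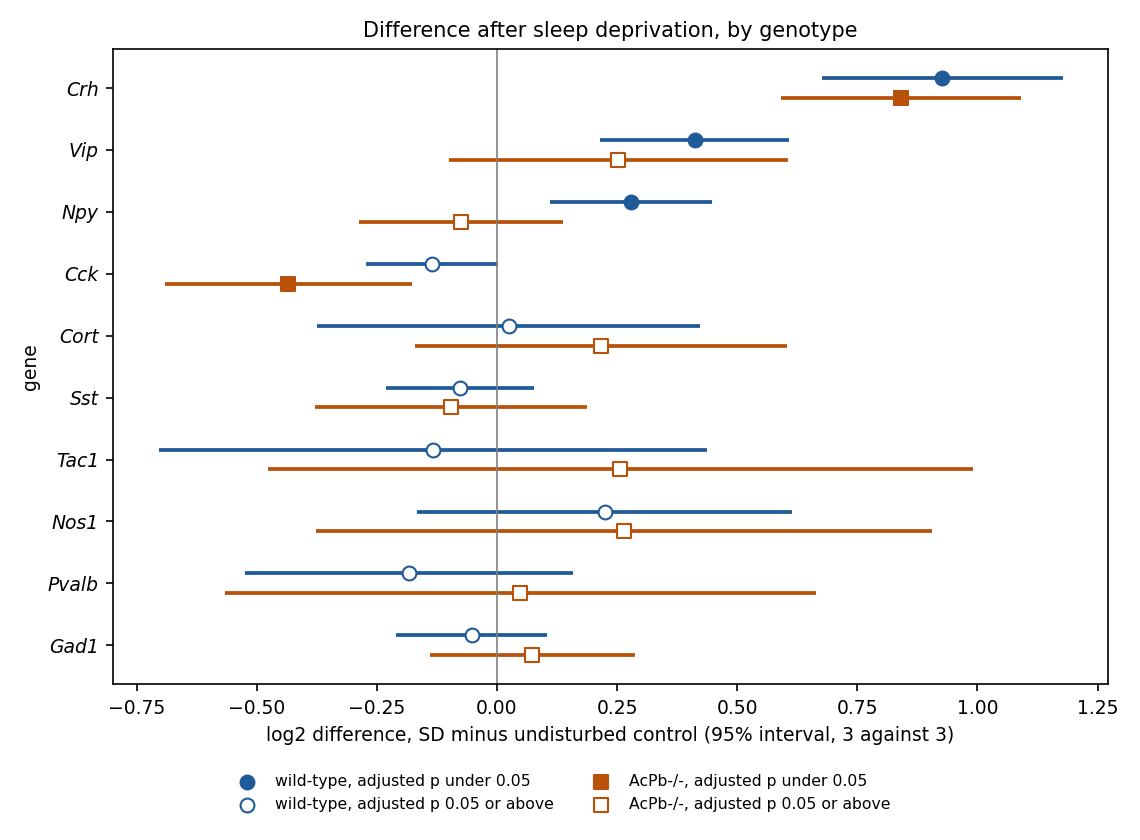
Log2 difference after SD (horizontal axis, SD minus control, 3 libraries against 3) of each gene (vertical axis) in WT mice (circles) and AcPb-/- mice (squares); lines are 95% intervals, and filled symbols mark a limma adjusted p under 0.05. Crh stands apart at 0.93 and 0.84, Vip and Npy are filled in WT mice only at 0.41 and 0.28, and Cck in AcPb-/- mice only at -0.43; no difference between the genotypes passed the interaction test.

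Next, the genotypes were compared within each condition. None of the 10 members passed limma's test in undisturbed mice, where 0.0197% of 20273 genes were called, or after SD, where 0.0145% of 20621 were. Before adjustment, 2 of 10 members had a limma p under 0.05 in undisturbed mice and 4 of 10 after SD. So had 1730 of 20273 and 1265 of 20621 genes. edgeR also called 0 members in both comparisons, whereas DESeq2 called Cort in undisturbed mice and Npy after SD.

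Cort, a peptide close to somatostatin that acts on the same receptors and is named for its cortical expression and sleep-related actions, was lower in all 6 AcPb-/- libraries than in all 6 WT libraries, as the values above show. In undisturbed mice its mean was 131.2 ± 5.5 against 245.7 ± 41.4 in WT, a log2 difference of -0.89 ± 0.15 (-1.23 to -0.55) with a limma adjusted p of 0.191. After SD it was 154.4 ± 31.9 against 252.0 ± 58.6, a log2 difference of -0.70 ± 0.20 (-1.14 to -0.26; limma adjusted p = 0.540). In undisturbed mice DESeq2 called it (adjusted p = 0.00273), as did limma without CTL-AcPbKO 03 (-0.92, adjusted p = 0.0357). The fit of 8 libraries, with 1 control per genotype, gave -0.56 (limma adjusted p = 0.812) in undisturbed mice and -0.70 after SD (limma adjusted p = 0.672). Its counts were low, from 74 to 425 reads a library. The neighbouring gene Cenps, listed under its older symbol Apitd1, showed no such difference: in undisturbed mice the log2 difference was 0.03 (-0.40 to 0.46; limma adjusted p = 0.978), and after SD it was -0.0038 (-0.35 to 0.34; limma adjusted p = 0.999).

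In undisturbed mice, Npy differed between genotypes by -0.03 on the log2 scale (-0.23 to 0.18; limma adjusted p = 0.951). After SD the SD-AcPbKO libraries, at 2939 to 3015, lay below the SD-WT libraries, at 3519 to 4141. That log2 difference was -0.38 ± 0.07 (-0.54 to -0.22; limma adjusted p = 0.204), and DESeq2 called it (adjusted p = 0.00218). Cck (-0.23, -0.43 to -0.03, limma adjusted p = 0.753) and Crh (-0.23, -0.45 to -0.02, limma adjusted p = 0.787) were also below WT in every SD library without passing the test. The share of all genes whose groups do not overlap was not counted for any comparison, so a lack of overlap alone shows no difference. Tac1 differed by -0.68 (-1.32 to -0.05; limma adjusted p = 0.553) in undisturbed mice with overlapping groups.

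**Figure D3:**
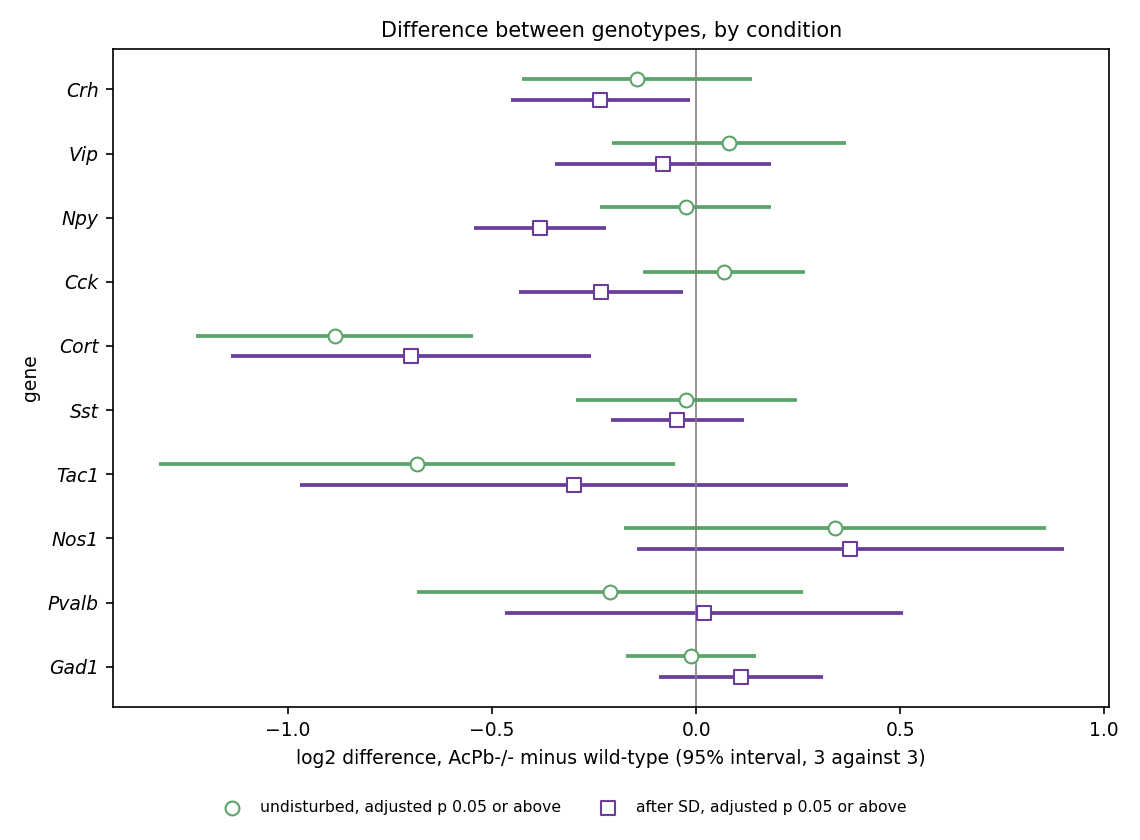
Log2 difference between genotypes (horizontal axis, AcPb-/- minus WT, 3 libraries against 3) of each gene (vertical axis) in undisturbed mice (circles) and after SD (squares), with 95% intervals. All symbols are open, since no member passed the limma test; Cort lies at -0.89 and -0.70, and Npy at -0.03 and -0.38.

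The deposited tables also set AcPb-/- mice after SD against undisturbed WT mice, a comparison in which genotype and sleep loss differ together. It shares its libraries with the comparisons above and is no independent evidence. Of the members, 4 were called where 27.7% of 20560 genes were, 14.1% higher and 13.6% lower: Crh (0.70, limma adjusted p = 0.00125) and Vip (0.33, limma adjusted p = 0.0306) were higher, and Cck (-0.37, limma adjusted p = 0.00759) and Cort (-0.67, limma adjusted p = 0.0205) were lower. Vip lost its call without CTL-WT 01 or 02 or SD-AcPbKO 02 or 04, and Cort without CTL-WT 02 or 03 or SD-AcPbKO 02 or 03. Nos1 (0.60, 0.02 to 1.19; limma adjusted p = 0.114) was called only when SD-AcPbKO 03 was left out (0.91, limma adjusted p = 0.0104). The interaction of genotype and SD was called for 0 of 10 members and 0% of 20978 genes by limma. Before adjustment 2 of 10 members, Npy and Cck, had a limma p under 0.05, as had 839 of the 20978 genes. Both edgeR and DESeq2 called 0 members.

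Genes that work with the members were described from 5 lists with 67 genes, all tested. After SD 21 of them (31.3%) were called in WT mice, 12 higher and 9 lower, and 23 (34.3%) in AcPb-/- mice, 13 higher and 10 lower, against the 25.4% and 27.4% of all genes. Without the Xist libraries, 1 of the 67 was called in WT mice (1.49%, against 3.31% of all genes), namely Vipr1, and 7 in AcPb-/- mice (10.4%, against 10.1%), namely Sstr1, Sstr2, Vipr1, Scg2, Chgb, Npas1 and Lamp5. The calls of all other genes named in the next 3 paragraphs were lost in that fit. Between genotypes limma called 0 of the 67 in undisturbed mice and 0 after SD. Before adjustment 12 and 14 of the 67 had a limma p under 0.05, against 1730 of 20273 and 1265 of 20621 genes. In the same comparisons edgeR called 0 and 0 and DESeq2 2 and 3. In AcPb-/- mice after SD against undisturbed WT, 24 (35.8%) were called, 16 higher and 8 lower, among them Scg2 (1.01), Sstr2 (0.82) and Dlx1 (0.66) higher and Chodl (-0.85) and Pcsk1n (-0.57) lower.

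Receptors and binding proteins of the members moved in both directions. Of 16, 2 rose and 4 fell in WT mice and 3 rose and 4 fell in AcPb-/- mice, with median log2 differences of -0.06 and -0.11. For somatostatin and cortistatin, the receptor gene Sstr2 rose (0.38, limma adjusted p = 0.0152 in WT; 1.29, limma adjusted p = 0.00184 in AcPb-/-) and Sstr1 fell (-0.49 and -0.67; limma adjusted p = 0.00265 and 0.0023). The difference of the Sstr2 effect between genotypes was 0.90 (0.41 to 1.40; limma adjusted p = 0.986). The Vip receptor gene Vipr1 rose in both (0.48 and 0.43; limma adjusted p = 0.0103 and 0.00842). Crhr1, the main receptor gene for Crh, fell in both while Crh rose (-0.29 and -0.48; limma adjusted p = 0.00905 and 0.00835). Crhr1 without the Xist libraries was at -0.23 and -0.24 (limma adjusted p = 0.138 and 0.101). Gucy1a2, a subunit gene of the guanylate cyclase that senses nitric oxide, fell as well (-0.59 and -0.33; limma adjusted p = 0.00356 and 0.019). Tacr3, a receptor gene of the tachykinin family to which substance P belongs, fell in WT mice (-0.56, limma adjusted p = 0.0363) and was at -0.16 in AcPb-/- mice (limma adjusted p = 0.568). In the 8 libraries without Xist, Vipr1 was called in both (0.69 and 0.61; limma adjusted p = 0.0331 and 0.0228), and Sstr1 (-0.78) and Sstr2 (0.80) in AcPb-/- mice (limma adjusted p = 0.0228 and 0.0258), where in WT they were at -0.34 and 0.50 (limma adjusted p = 0.0723 and 0.0749).

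Peptide processing and dense-core granule genes had, in the main fit, more genes called higher than any of the other 4 lists. Of 12, 5 rose and 2 fell in WT mice and 6 rose and 1 fell in AcPb-/- mice. Over all genes, 13.2% were called higher in WT and 14.1% in AcPb-/- mice. The list's median log2 differences were 0.21 and 0.26, where the median over all genes tested was -0.0039 and 0.014. Without the Xist libraries its medians were 0.21 and 0.32, and it no longer had more genes called higher than each other list. Scg2, a granin that is packed with peptides, went from 9608 ± 664 to 19318 ± 2886 normalized counts in the WT table and from 8466 ± 502 to 18325 ± 2497 in the AcPb-/- table (log2 differences 0.999 and 1.11; limma adjusted p = 0.00029 and 0.00061). Chgb, another granin, rose by 0.56 and 0.75 (limma adjusted p = 0.00287 and 0.00061) and Scg3 by 0.42 and 0.39 (limma adjusted p = 0.00217 and 0.00578). Chga rose in AcPb-/- mice (0.43, limma adjusted p = 0.00299) and was at 0.15 in WT mice (limma adjusted p = 0.201). Pcsk1n, whose product inhibits the peptide-cleaving convertase of Pcsk1, fell (-0.59 and -0.95; limma adjusted p = 0.00602 and 0.000693). In the 8 libraries without Xist, Scg2 was at 1.04 in WT (limma adjusted p = 0.0559) and at 1.17 in AcPb-/- mice (limma adjusted p = 0.029), and Chgb at 0.54 and 0.72 (limma adjusted p = 0.0899 and 0.0377). Pcsk1n was then at -0.70 and -0.90 (limma adjusted p = 0.138 and 0.065).

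**Figure D4:**
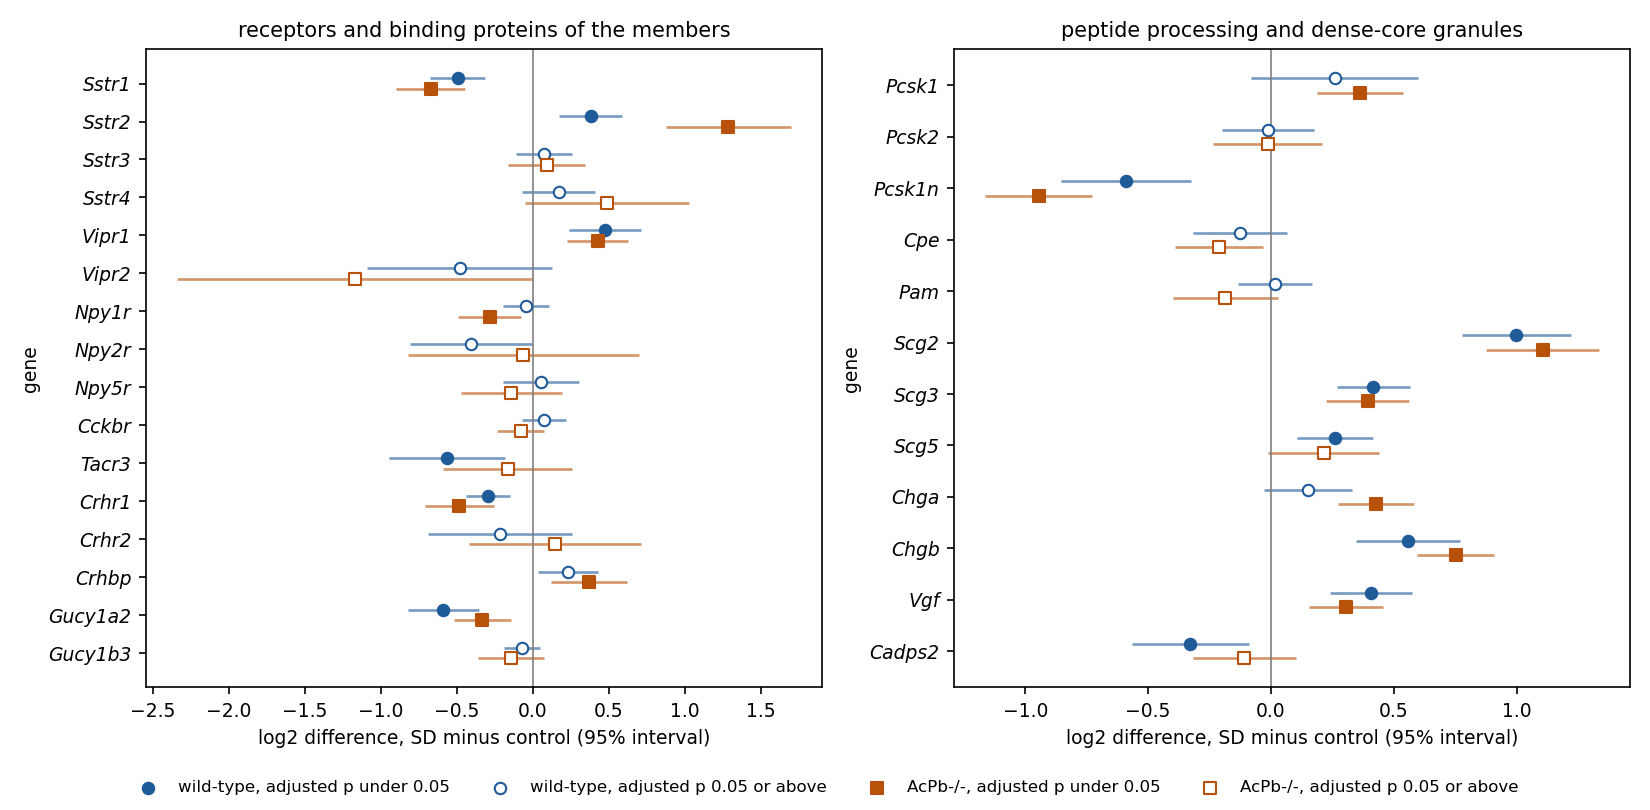
Log2 difference after SD (horizontal axis) of the 16 receptor and binding protein genes (left) and the 12 peptide processing genes (right) in WT (circles) and AcPb-/- mice (squares), with 95% intervals; filled symbols mark a limma adjusted p under 0.05. Scg2 and Chgb lie to the right in both genotypes, and Sstr1, Crhr1 and Pcsk1n to the left.

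In the other lists of interneuron genes, calls went in both directions. Of 5 GABA genes 1 was called higher and 1 lower in WT mice, and 1 and 2 in AcPb-/- mice. For 14 transcription factors these counts were 2 and 1, and 2 and 2. For 20 other subclass markers they were 2 and 1, and 1 and 1. Over all genes, 25.4% were called in WT and 27.4% in AcPb-/- mice. Without the Xist libraries, of these calls only that of Npas1 in AcPb-/- mice was kept, and Lamp5 gained a call there. Of 5 genes of GABA synthesis, transport and breakdown, Gad2 rose (0.19 and 0.26; limma adjusted p = 0.0455 and 0.0354) and Slc32a1, the vesicular transporter, fell (-0.40 and -0.31; limma adjusted p = 0.0031 and 0.0204), and the astrocyte transporter Slc6a11 fell in AcPb-/- mice (-0.30, limma adjusted p = 0.0242). None of the 5 was called without the Xist libraries, where Gad2 was at 0.14 and 0.35 (limma adjusted p = 0.412 and 0.0716) and Slc32a1 at -0.50 and -0.34 (limma adjusted p = 0.0845 and 0.14). Of 14 transcription factors of the interneuron lineage, Lhx6, which specifies Sst and Pvalb cells, and Dlx1 rose in both genotypes (Lhx6 0.32 and 0.54, limma adjusted p = 0.0134 and 0.00295; Dlx1 0.41 and 0.35, limma adjusted p = 0.0368 and 0.0328). Npas1 fell in both (-0.28 and -0.35; limma adjusted p = 0.0303 and 0.0417) and Sp8 in AcPb-/- mice (-0.87, limma adjusted p = 0.0159). In the 8-library fit Lhx6 (0.33 and 0.45; limma adjusted p = 0.185 and 0.0846) and Dlx1 (0.63 and 0.48; limma adjusted p = 0.0929 and 0.127) lost both calls, and Npas1 was called in AcPb-/- mice alone (-0.57, limma adjusted p = 0.0258). Of 20 other subclass markers, Calb1, which excitatory neurons also express, fell in both (-0.38 and -0.59; limma adjusted p = 0.0223 and 0.0245) and Elfn1 rose in both (0.23 and 0.32; limma adjusted p = 0.0309 and 0.0377). Lamp5, also a gene of upper-layer pyramidal neurons, rose in WT mice (0.58, limma adjusted p = 0.00114) and was at 0.30 in AcPb-/- mice (limma adjusted p = 0.179). In the 8-library fit Calb1 (-0.19 and -0.17; limma adjusted p = 0.474 and 0.503) and Elfn1 (0.17 and 0.16; limma adjusted p = 0.405 and 0.384) lost both calls, and Lamp5 was at 0.65 in WT (limma adjusted p = 0.0683) and called in AcPb-/- mice (0.66, limma adjusted p = 0.0467).

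The labelled tissue was checked by 12 markers of cortical excitatory neurons, which summed to 94160 to 123216 normalized counts in the 12 libraries, with none at 0. Their sum was lower after SD in both genotypes, with a small overlap in WT (108155 to 117811 in controls, 94160 to 108962 after SD) and none in AcPb-/- mice (119260 to 123216 and 106040 to 113671), where Cck was called lower. Of the 12, 2 were called higher and 4 lower in WT and 2 higher and 1 lower in AcPb-/- mice. Their median log2 differences were -0.16 in WT and -0.0003 in AcPb-/- mice. A sum weighs the most abundant markers most, and the lower sum in AcPb-/- mice was not shared by the typical marker. Markers of tissue next to the somatosensory cortex varied between libraries and moved with some of these results. The summed level of 6 claustrum and lateral cortex markers was 14830 to 15022 in CTL-WT and 9706 to 10389 in SD-WT, and 9968 to 15903 and 11610 to 13891 in the AcPb-/- groups. All 6 were called lower after SD in WT mice and 1 of 6 in AcPb-/- mice. Over all genes, 12.2% were called lower in WT and 13.3% in AcPb-/- mice. The calls of marker lists in this paragraph are from the main fit, whose controls include the Xist libraries, and are not given without them. For 10 striatal markers the sum ranged from 18725 to 29414 in CTL-WT, 17552 to 21767 in SD-WT, 17916 to 21849 in CTL-AcPbKO and 21032 to 24124 in SD-AcPbKO, with 4 called lower in WT mice and 0 of 10 in AcPb-/- mice. Oligodendrocyte markers summed to 114875 in CTL-AcPbKO 03 against 48839 and 66490 in the other 2 controls, and to 98928 to 124730 in CTL-WT, 81274 to 113995 in SD-WT and 66289 to 99053 in SD-AcPbKO; 3 of 5 were called lower after SD in WT and 0 in AcPb-/- mice. Microglia markers summed to 14091 to 15428 in CTL-WT, 12908 to 13938 in SD-WT, 13935 to 14813 in CTL-AcPbKO and 10086 to 12246 in SD-AcPbKO, with 0 of 5 called in WT and 3 called lower in AcPb-/- mice. No marker of these 4 lists was at 0 in any library. CTL-AcPbKO 03, the highest of its group in all 4 lists, was also the highest of its group in Sst, Tac1, Nos1 and Cort and the lowest in Vip, Npy, Cck, Crh, Pvalb and Gad1. For 7 hippocampal markers the sum was 2027 in CTL-AcPbKO 03 against 1164 and 1024, and 2022 in SD-AcPbKO 04 against 895.1 and 914.2. It was 1373 in SD-WT 04 against 790.5 and 772.6, and 846 to 949.4 in CTL-WT. CTL-AcPbKO 03, SD-AcPbKO 04 and SD-WT 04 were also the highest of their groups in Tac1, Nos1 and Cort. In CTL-WT this held for Nos1 only. Between genotypes 1 of 7 was called after SD and 0 in undisturbed mice, where 4 had a limma p under 0.05. The part of these markers in the members' values was not tested.

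**Figure D5:**
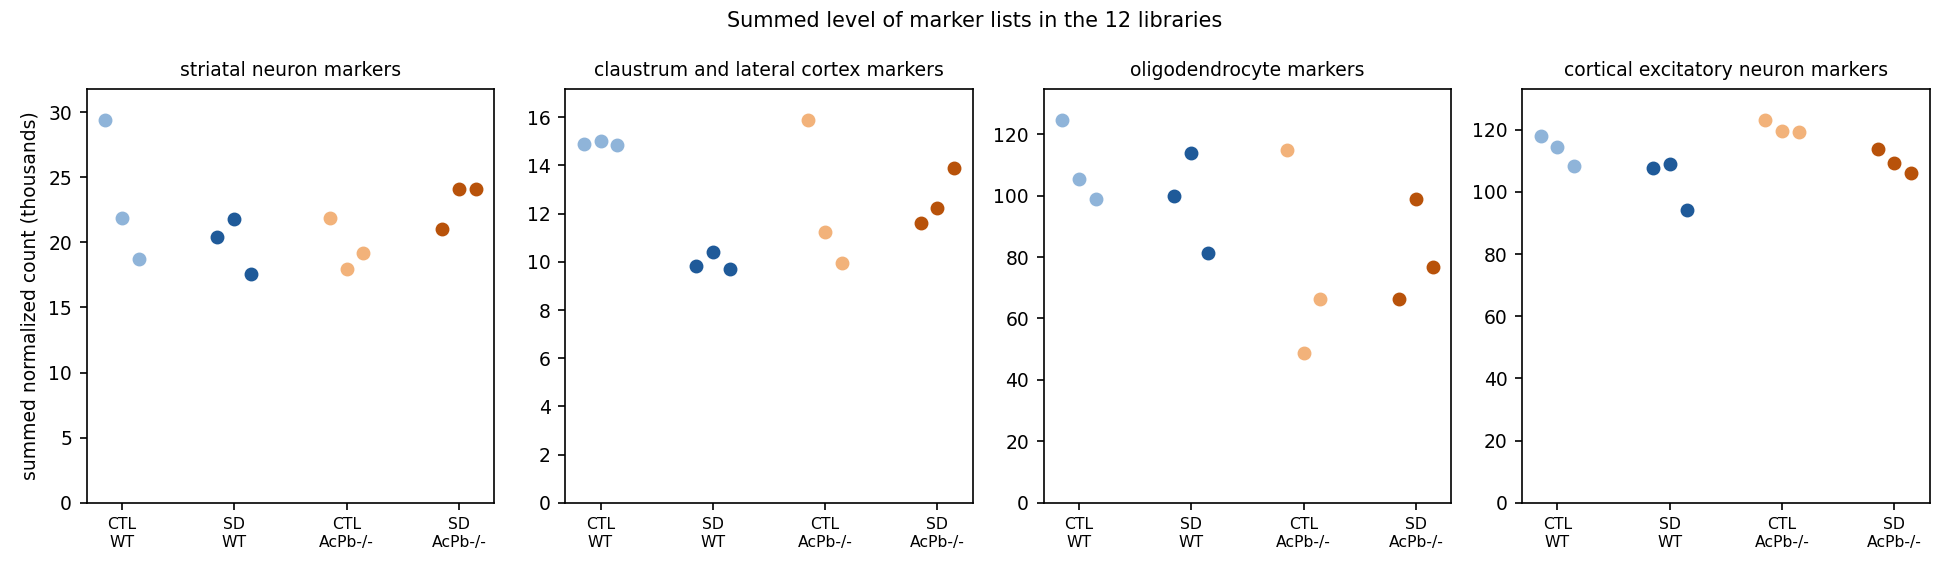
Summed normalized count in units of 1000 (vertical axis, from 0) of 4 marker lists in the 12 libraries, by group along the horizontal axis; each point is 1 library. The CTL-WT libraries sit together for claustrum and lateral cortex markers, from 14830 to 15022, above the SD-WT libraries, from 9706 to 10389, and CTL-AcPbKO 03 sits above its 2 companions for that list and for oligodendrocyte markers.

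Within groups, some members varied together or in opposition. After each group's mean was subtracted from the log2 values, Pvalb and Nos1 were opposed over the 12 libraries (Pearson r = -0.964), Gad1 went with Pvalb (r = 0.87) and against Nos1 (r = -0.819), and Tac1 went with Nos1 (r = 0.792) and Sst (r = 0.773), while Vip went with Crh (r = 0.767) and Sst against Npy (r = -0.78). These are descriptions over 12 libraries with 8 residual degrees of freedom, whose dissection and depth can differ together. Over 13121 genes whose mean reached 100, the most alike to Nos1 were Arhgef28 (r = 0.994), Timp2 (r = 0.981) and Hpcal4 (r = 0.98), and to Pvalb Atg4d (r = 0.988), Kcns3 (r = 0.982) and Gpx1 (r = 0.974). For Gad1 they were Kcnk1 (r = 0.965), P2rx7 (r = 0.952) and Akr1c18 (r = 0.949), for Tac1 Kcnc4 (r = 0.963), Cnst (r = 0.962) and Car12 (r = 0.953), and for Sst Pde9a (r = 0.969), Tmem163 (r = 0.947) and Prrg1 (r = 0.942). For the peptides that moved after SD they were Hiat1 (r = 0.984), Brix1 (r = 0.968) and Mff (r = 0.955) with Crh, and Akirin1 (r = 0.967), Dusp4 (r = 0.96) and Zfp84 (r = 0.956) with Vip. Npy was nearest to Lsm1 (r = 0.982), Olfr78 (r = 0.951) and Pnrc1 (r = 0.943), Cck to Tmem55b (r = 0.965) and Lmo2 (r = 0.919), and Cort to Tmem183a (r = 0.969), Osbp (r = 0.96) and Mapkapk3 (r = 0.941). Nothing of shared function or control was read from them.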

How the data were processed

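The authors sequenced TruSeq Stranded mRNA libraries of total RNA; per the labels, reads were handled with bcl2fastq, aligned with HISAT2 2.2.1 to mm10, counted with featureCounts and normalized with DESeq2 1.31.16, while the study's methods name HTSeq as the counter. The 5 deposited tables hold 24421 genes and 6 libraries each, and their values are a signal: read counts divided by a size factor. The authors' log2 fold changes, scores and p-values, also deposited there, were not used. The size factors were undone, and 100.0% of 732630 values came out within 0.01 of a whole read; 0 counts differed between tables for the same library. Of 16 labelled samples, 4 have no column and were not analysed here. Common-scale values differ from those of the tables by a factor of 0.97 to 1.032, constant to 0.37% within a table.

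Each comparison was fitted with limma 3.58.1 (R 4.3.3) on log2(normalized count + 1) of its table, with a variance trend, over genes with at least 1 read; the pseudocount understates changes of low genes. The interaction was fitted on 12 libraries. edgeR 4.0.16 and DESeq2 1.42.0 on the recovered reads were alternatives; with whole reads they called 5368 and 5378 genes after SD in wild-type mice and 5682 and 5820 in AcPb-/- mice. The scripts were tested on simulated data. No library was a copy of another: the chi-square per gene between replicates was 6.61 or more. The p-values measure the spread between these libraries. Lengths are unions of GENCODE M21 exons, and 95.7% of symbols matched that annotation; the gene Gucy1b1 was matched by its older symbol Gucy1b3. The members and gene lists were chosen with earlier results of these data known. Named are the 10 members in all comparisons, up to 4 called genes per list with the largest differences, and the 3 genes most alike to each member, of which 1 is not reported here; Il1rap, Cenps and Xist were added as checks.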

Additional observations from a re-analysis of the deposited data

How the results depend on the processing

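The 35 log2 differences of members had 648 values under alternative settings. Of these values, 570 kept their direction and their side of the threshold, 38 lost the call and 6 gained one. By definition, only the 9 called differences could lose a call. In AcPb-/- after SD against undisturbed WT, Vip and Cort each lost the call in 8 of 18 alternatives. After SD, Npy in WT lost it in 7 of 18 and Cck in AcPb-/- mice in 6 of 18. None of the 9 called differences changed direction, and the cause of the changes below was not tested. In WT mice after SD, 3 members were called, by edgeR and DESeq2 too, but 0 with the replicate block and 1 (Crh) in the 8 libraries without Xist. In AcPb-/- mice, 2 were called, but 1 (Crh) at adjusted p under 0.01, 0 with the replicate block and 1 (Crh) without Xist, against 3 (Vip, Cck and Crh) with a term for Xist, and 1 to 2 with each replicate left out. For AcPb-/- after SD against undisturbed WT, 4 were called, but 2 at adjusted p under 0.01, 0 with the replicate block, 2 (Vip and Crh) with a term for Xist, 1 (Crh) without Xist, and 2 to 4 with each replicate left out. Between genotypes 0 were called, but DESeq2 called 1 in undisturbed mice and 1 after SD, and leaving out replicates gave 0 to 1 in undisturbed mice. The replicate block also called 0 of all genes; replicate numbers are shared by 2 libraries or fewer per comparison, and the deviations of same-numbered libraries correlated at -0.0959 to 0.0756 within genotypes, so the numbers were not taken as pairs. After SD, between genotypes, they correlated at 0.287 and 0.358. No block could be fitted between undisturbed genotypes, which share 1 number.

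Changes of sign occurred 34 times, all in differences that were not called. The largest difference that changed sign was 0.264 in size in the main fit. With the replicate block, in WT after SD Pvalb was 0.00232, Cort -0.12 and Nos1 -0.095, in AcPb-/- Nos1 -0.042, and the interactions of Vip and Crh were 0.0917 and 0.0239. With a term for Xist, in WT Pvalb was 0.127, Nos1 -0.143 and Gad1 0.0324, and in AcPb-/- Npy was 0.0841, Tac1 -0.124 and Nos1 -0.105. Without the Xist libraries, in WT Pvalb was 0.135 and Nos1 -0.0982, in AcPb-/- Npy was 0.151, Tac1 -0.271 and Nos1 -0.146, and the Vip interaction was 0.121. With reads thinned to the smallest total, Cort was -0.0415 in WT and -0.0279 in AcPb-/- mice. With each replicate left out, in WT Pvalb ranged from -0.342 to 0.00853, Tac1 from -0.424 to 0.0592, Cort from -0.148 to 0.182, Nos1 from -0.00447 to 0.385 and Gad1 from -0.101 to 0.012. In AcPb-/- mice Sst ranged from -0.181 to 0.0659, Npy from -0.189 to 0.00231, Pvalb from -0.242 to 0.287 and Tac1 from -0.098 to 0.521, and the Crh interaction from -0.182 to 0.0037.

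Over all genes, the 5186 calls in WT mice after SD became 2360 at adjusted p under 0.01, 687 without Xist and 2699, 2941 and 2836 without CTL-WT 02, SD-WT 01 or SD-WT 02. In AcPb-/- mice 5633 became 2656, 2097 and, without CTL-AcPbKO 04, SD-AcPbKO 02 or SD-AcPbKO 04, 3417, 3393 and 3575. The 5697 of AcPb-/- after SD against undisturbed WT became 2860, 1301 and, without CTL-WT 02 or SD-AcPbKO 02, 3393 and 3534. Between genotypes the 4 calls in undisturbed mice became 0 to 168 and the 3 after SD 0 to 99, both extremes included over all alternatives, with 104 and 99 by DESeq2 and 168 without CTL-AcPbKO 03. Precision is limited by 3 libraries a group and, for Cort, Crh and Tac1, by counts under 1000 reads a library.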
